A study of Mus musculus with 16 samples.

Results

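The 4 arrays of induced pluripotent stem (iPS) cells were set against the 4 arrays of mouse embryonic fibroblasts (MEF) of the same strain, CD1, which together are 8 of the 16 arrays of a series on stepwise reprogramming. They were chosen by the cell type in their labels, and every probe of the non-normalized intensity table was used, with its detection p-values. The comparison gives the net change over the whole induction, with no difference in strain between its groups. Total RNA was measured on Illumina bead arrays, 1 array per dish. The iPS sample titles read 3F-SOX2, that is, Sox2 added to a 3-factor stage. That stage is labelled OKM, after the usual initials of Oct4 (encoded by Pou5f1), Klf4 and Myc. How the factors were delivered, and whether they were still supplied at harvest, is not given in the sources used here. No allele or transgene is labelled for MEF. The iPS cells grew in 15% serum with 10 ng/ml of leukaemia inhibitory factor (LIF), 100 µM beta-mercaptoethanol and 2 mM each of non-essential amino acids, glutamine and HEPES, on primary MEF treated with mitomycin C, and MEF grew in 10% serum, with no feeders or such additions labelled. Induction, culture and feeder RNA cannot be told apart in this design. The other 8 arrays, OKM cells of strain CD1 and embryonic stem (ES) cells of strain 129, shared the medium and feeders of the iPS cells, and their levels are given beside those of iPS cells where they add to a result.

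Fibroblasts hold their shape and lay down connective tissue through collagens, elastic fibres and a contractile actin cytoskeleton, under transcription factors of the mesenchyme. Pluripotent cells of the mouse form compact epithelial colonies. Their state rests on a network of transcription factors around Pou5f1, Sox2, Nanog and Esrrb, on LIF signalling and on a short cell cycle. Reprogramming therefore involves the loss of a mesenchymal programme, the gain of an epithelial one and the start of genes that are silent in somatic cells.

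The arrays of each group resembled each other. Raw medians ran from 121.3 to 126.7 in MEF and from 122.8 to 134.2 in iPS cells. Detection needed a detection p-value under 0.01 on that array, which held for 44.9% to 46.4% of probes on the MEF arrays and for 46.4% to 49.1% on the iPS arrays. The mean share was 48.0% ± 1.19 in iPS cells and 45.8% ± 0.673 in MEF (SD, n = 4), a difference of 2.19 percentage points (exact two-sided permutation p = 0.0571, where 70 splits allow no less than 0.0286). Pearson's r across genes was 0.988 to 0.993 between iPS arrays, 0.993 to 0.996 between MEF arrays and 0.799 to 0.813 between a MEF and an iPS array (genes are not independent replicates). The p-values measure the spread between dishes, and the labels, which name independent dishes, do not tell whether these were separate derivations.

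Markers of pluripotent cells and of fibroblasts fitted the labels. All 8 markers of pluripotent cells were detected on all 4 iPS arrays and on no MEF array, and their summed signal (linear scale) was 97 to 170 in MEF and 84876 to 86778 in iPS cells. Of 11 fibroblast markers measured, 10 were tested and all 10 were lower in iPS cells, with summed signals of 95764 to 107487 in MEF and 17916 to 23320 in iPS cells. Col1a2 and Col3a1, both abundant fibrillar collagen chains of fibroblasts, were detected on 0 of 4 iPS arrays, and Postn was detected in neither group. The same sum was 4509 to 11559 in ES cells, which grew on the same kind of feeder. The part of the feeders in the iPS sum was not tested. Macrophage markers were present in MEF (summed signal 19355 to 20492) and lower in iPS cells (8462 to 11571), with C1qa, C1qb, C1qc and Tyrobp on 0 of 4 iPS arrays. Most of that iPS sum was Laptm5, which was not called. The sum of the 6 other markers, taken after these values were seen, was 13871 to 14726 in MEF and 504 to 624 in iPS cells. In ES cells that sum was 2301 to 4112, and the part of the feeders in it was not tested. In these bulk RNA samples, fewer cells of a type and less RNA per cell cannot be told apart. Markers of neural cells were at background in both groups (0 of 5 detected on any of the 8 arrays).

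Of 9455 genes tested, 1798 were higher in iPS cells and 1654 lower, where a call needed an adjusted p under 0.05 (limma, Benjamini-Hochberg) and a change of at least 2-fold. These are 19% and 17.5% of the genes tested, and 36.5% in all. Counts of called members of a gene list, given below, stand against these shares. At 4-fold or more 684 genes were higher and 597 lower. The largest changes leaned further toward iPS cells, with 154 higher and 94 lower at 16-fold or more and 55 higher and 13 lower at 64-fold or more. The median change was 0.03 on the log2 scale over all genes tested, 1.66 among the genes called higher and -1.66 among those called lower. The arrays fall into 2 runs of 8 columns in the deposited table, each with 2 arrays of every group. Within the first run 1789 genes were called higher and 1603 lower, within the second 1826 and 1727, and with the run as a block 1798 and 1654. The runs are balanced over the groups, so that block leaves every log2 change as it is and could hardly alter a call. For 71.4% of the genes the 4 iPS values and the 4 MEF values did not overlap, 36.9% with iPS cells higher and 34.5% with MEF higher, so that an absence of overlap is the ordinary case here. By adjusted p alone, 76.3% of genes passed.

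Detection split the genes further. On all 4 iPS arrays and no MEF array 715 genes were detected, and on all 4 MEF arrays and no iPS array 363 (612 and 216 at a detection p-value under 0.05), while 7089 genes were detected on all 8 arrays. The genes called higher that no MEF array detected (691) had a median change of 2.25, and those called lower that no iPS array detected (345) of -2.14. Called genes detected on all 8 arrays changed less, with medians of 1.43 (1006 higher) and -1.54 (1133 lower). Levels are log2 normalized intensities with an offset of 16 in the background correction, so a change between dim probes is understated. Changes given without a fold are iPS minus MEF on that log2 scale, and group levels are means ± SD of 4 arrays. For a gene that 1 group did not detect, a fold is therefore a lower bound: that group was set, per array, to the dimmest detected probe or to its own value if higher, and the fold is written "at least". Without background correction the changes of dim genes shrink further: the medians of 30 of 68 gene lists moved toward 0 by over 1.5 times. Only the median of the neural genes crossed 0, from 0.19 to just below it. Values of that fit are called uncorrected where they are given.

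**Figure D1:**
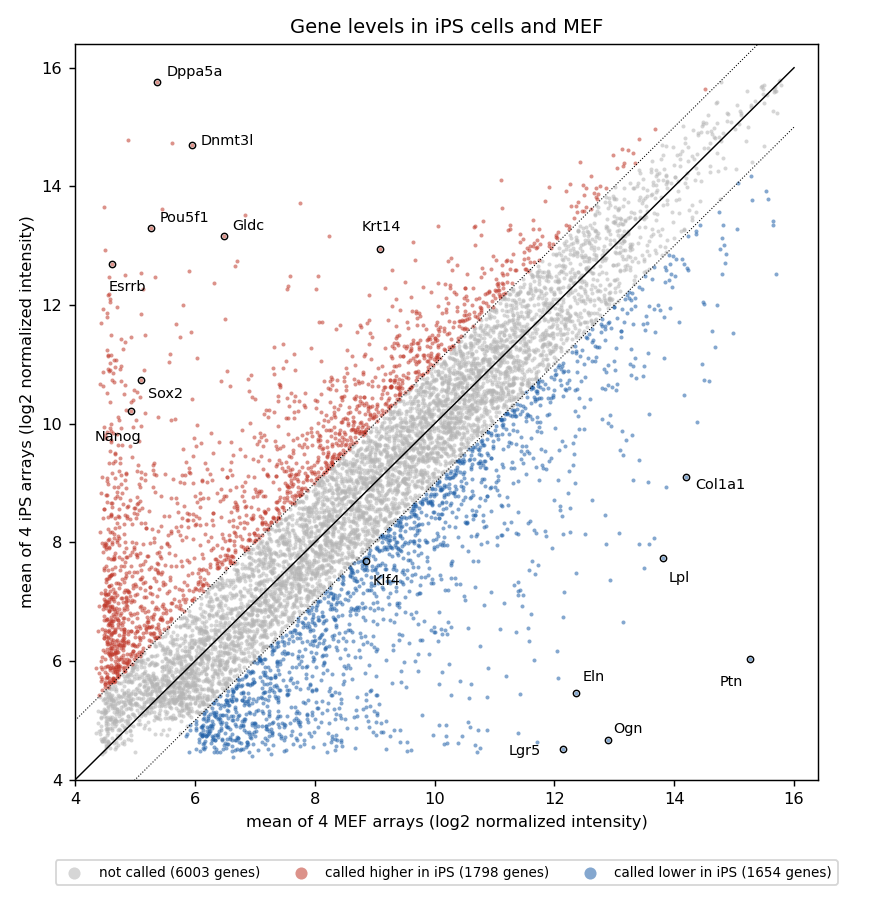
Mean level of each of 9455 genes on the 4 MEF arrays (x axis) and the 4 iPS arrays (y axis), in log2 normalized intensity, with the 1798 genes called higher in red, the 1654 called lower in blue and the rest in grey; the solid line marks equal levels and the dotted lines a 2-fold change. Dppa5a, Dnmt3l, Pou5f1 and Esrrb lie along the left edge, at background or near it in MEF, and Ptn, Ogn and Lgr5 near the lower edge.

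The factors of the induction differed in how they stood against MEF. Pou5f1, the central factor of pluripotency, read 4.95, 5.38, 4.96 and 5.77 on the MEF arrays and 13.14, 13.31, 13.19 and 13.55 on the iPS arrays. No MEF array detected it, and the rise was at least 187-fold (fitted log2 change 8.03 ± 0.15, SE, adjusted p = 6.63e-18). Its other probe changed by 8.43. Sox2, the partner of Pou5f1 on many enhancers, read 5.24, 5.41, 4.63 and 5.10 in MEF and 10.62, 10.52, 10.67 and 11.14 in iPS cells. All iPS arrays lay far above all MEF arrays, at least 31.6-fold (adjusted p = 9.21e-14). A second Sox2 probe, however, was detected on 0 of 4 iPS arrays and on 1 of all 16 arrays, so the rise rests on a single probe. The transcript positions of the probes were not used here, so these values may include RNA of an introduced factor.

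Klf4, a zinc finger factor that fibroblasts also use, went the other way. It read 8.71, 9.11, 8.76 and 8.86 in MEF and 7.77, 7.38, 7.94 and 7.64 in iPS cells, a fold change of 2.26 downwards (-1.18 ± 0.15, adjusted p = 1.32e-06). Its 3 probes changed by -1.18, -1.28 and -1.14, and in ES cells the gene stood at 10.51 ± 0.25. Its uncorrected change of -0.92 fell short of 2-fold. Myc, the growth regulator among the 4 factors, read 7.06, 7.39, 7.0 and 7.20 in MEF and 6.79, 6.30, 7.0 and 7.25 in iPS cells. The groups overlapped, and the difference of -0.33 ± 0.20 was not called (adjusted p = 0.15). Of 9 Kruppel-like factors tested, 2 were higher and 2 lower (22.2% each), near the 19% and 17.5% of all genes tested. Klf5 and Klf2, relatives of Klf4 with a role in ES cell self-renewal, were higher in iPS cells by 3.42 and 1.07. The call of Klf2 was lost with cyclic loess (0.96) and with median scaling (0.87).

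The network around these factors was on in the iPS cells. Of 19 core pluripotency regulators tested, 15 were higher and 1 lower, with a median change of 4.28 (2.61 uncorrected), against 19% higher and 17.5% lower among all genes tested. No MEF array detected 11 of the 19. Those passed the detection filter (at least 4 of 16 arrays) through other groups and could hardly be called lower. Esrrb, an orphan nuclear receptor of the naive network, read 4.52, 4.73, 4.52 and 4.68 in MEF and 12.93, 12.49, 12.66 and 12.65 in iPS cells. It was at least 122-fold higher (adjusted p = 5.03e-19), and its iPS level of 12.69 ± 0.18 lay below the ES level of 14.43 ± 0.27 (adjusted p = 1.74e-09). Nanog, the homeodomain factor that marks the naive state, read 4.88, 5.32, 4.85 and 4.67 in MEF and 10.46, 10.35, 9.90 and 10.15 in iPS cells. That is at least 22.0-fold higher (adjusted p = 3.92e-13), with ES cells at 11.75 ± 0.39. Sall4 (at least 78.2-fold) and Zfp42, also called Rex1 (at least 91.8-fold), were on in all 4 iPS arrays and in no MEF array. The same held for Utf1 (at least 53.7-fold) and for the RNA-binding regulator Lin28a (at least 10.4-fold, second probe 2.14). Gbx2, a homeobox gene downstream of LIF, was already detected on all 4 MEF arrays and rose by 6.05. Tbx3, another LIF-linked factor, read 8.14 ± 0.14 in MEF and 8.31 ± 0.08 in iPS cells and was not called (adjusted p = 0.112), while ES cells stood at 10.20 ± 0.09.

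**Figure D2:**
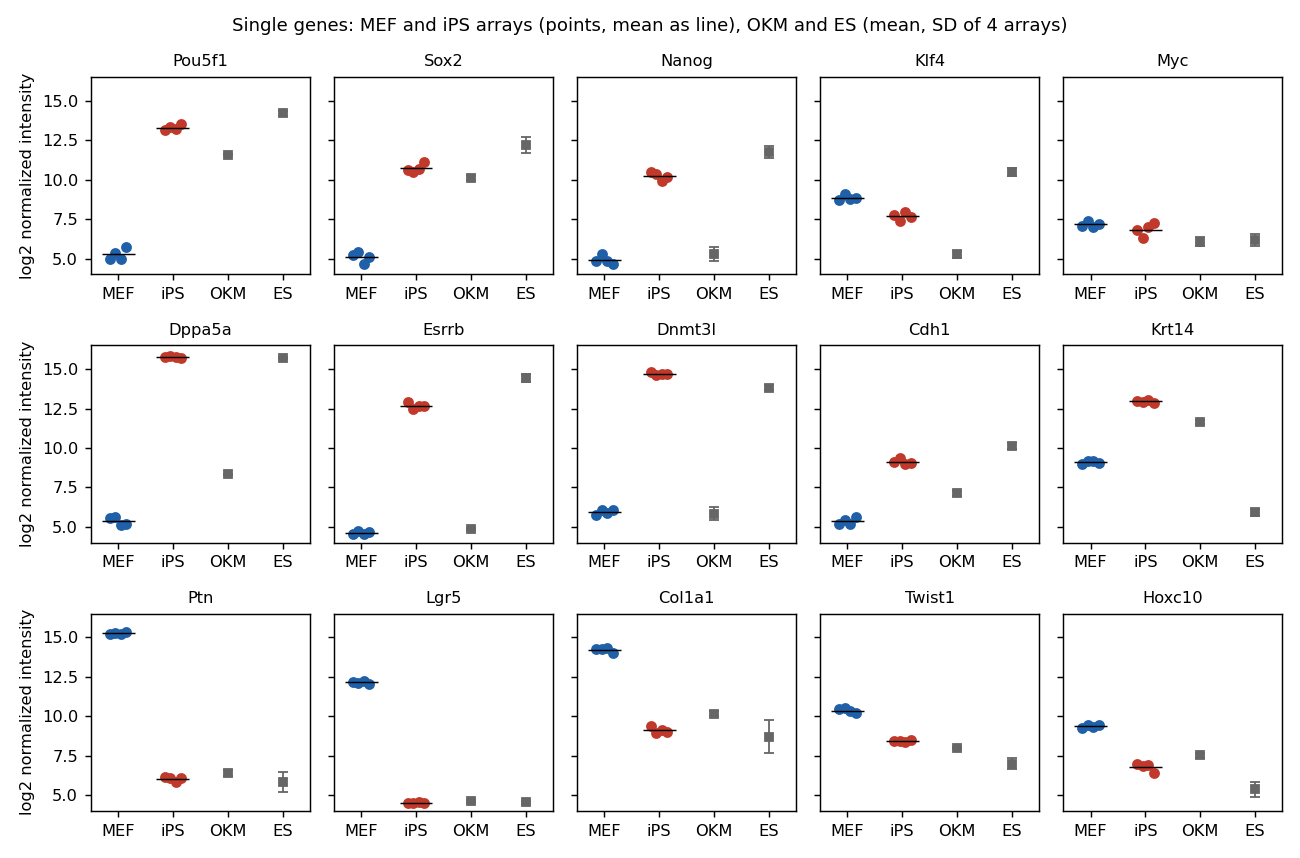
Log2 normalized intensity (y axis) of 15 genes, with each MEF array in blue and each iPS array in red, the group mean as a line, and OKM and ES cells as grey squares with the SD of 4 arrays. MEF and iPS arrays are separate for every gene shown except Myc, and of the 15 genes plotted Krt14 has the iPS level farthest above its ES level.

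Genes known from ES cells were among the largest rises. Of 28 ES cell associated genes tested, 27 were higher and none lower, with a median change of 5.22 (3.46 uncorrected). The exception was the junction gene Jam2 (0.37, adjusted p = 0.0834). No MEF array detected 18 of the 28, which passed the detection filter through other groups and could hardly be called lower. Dppa5a, an RNA-binding protein gene of pluripotent cells, had the largest change of all called genes. It read 5.56, 5.64, 5.12 and 5.17 on the MEF arrays and 15.78, 15.80, 15.77 and 15.71 on the iPS arrays. Not detected in MEF, it was at least 1031-fold higher (adjusted p = 9.07e-21), and the ES level of 15.70 ± 0.07 differed from the iPS level by 0.06 (adjusted p = 0.627). Both levels lie near the highest intensity on the arrays, so a difference between iPS and ES cells may be understated there. Dppa4, which encodes a chromatin protein, was at least 238-fold higher, and its second probe changed by 4.07. Upp1, the uridine phosphorylase gene, was detected on 1 of 4 MEF arrays and rose by 9.11 ± 0.10. Dnmt3l, the regulatory partner of the de novo DNA methyltransferases, read 5.74, 6.08, 5.90 and 6.07 in MEF and 14.80, 14.61, 14.70 and 14.71 in iPS cells. Detected on all 8 arrays, it was 433-fold higher (adjusted p = 2.38e-18). Its second probe changed by 9.18, and the iPS level lay 0.88 above that of ES cells (adjusted p = 8.19e-05). L1td1, an RNA-binding gene derived from a retrotransposon, was at least 85.7-fold higher. Trh, the gene of thyrotropin-releasing hormone, was at least 105-fold higher. Lefty1 and Lefty2, secreted inhibitors of Nodal whose sequences are close enough that their probes may not separate them, were at least 51.2-fold and 45.0-fold higher.

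Other leading rises were of genes not known first from pluripotent cells, and they divided by their level in ES cells. Mzb1, an endoplasmic reticulum protein gene best known from B cells, read 4.88, 4.76, 4.72 and 5.16 in MEF and 14.63, 14.78, 14.83 and 14.87 in iPS cells. It was at least 520-fold higher (adjusted p = 2.9e-20), and ES cells stood at 6.37 ± 0.23, lower than iPS cells by 8.41 on the log2 scale (adjusted p = 1.11e-18). Tph1, which encodes the rate-limiting enzyme of serotonin synthesis in peripheral tissues, read 4.55, 4.4, 4.52 and 4.78 in MEF and 12.43, 12.06, 12.16 and 12.10 in iPS cells. It was at least 86.3-fold higher than in MEF, and no ES array detected it. Of the 20 largest rises it was the only gene that ES cells did not detect. OKM cells stood at 15.11 ± 0.06 for Mzb1 and 10.80 ± 0.10 for Tph1. Slc38a5, a transporter of neutral amino acids, was at least 144-fold higher, with iPS cells at 12.93 ± 0.21, OKM cells at 14.58 ± 0.05 and ES cells at 8.28 ± 0.42. Urah, an enzyme gene of urate breakdown, and Wfdc2, a secreted protein gene of epithelia, were at least 234-fold and 107-fold higher. Wfdc2 stood at 12.50 ± 0.13 in iPS cells and 12.46 ± 0.27 in ES cells, and its second probe changed by 2.99 between MEF and iPS cells. Pla2g1b, the pancreatic type of phospholipase A2, was at background in MEF and OKM cells and read 11.93 ± 0.19 in iPS cells, at least 72.4-fold above MEF.

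Germline and extraembryonic genes rose in part. Of 16 germline genes tested, 8 were higher (5 uncorrected) and 1 lower (median 1.02, uncorrected 0.47). No MEF array detected 14 of the 16, among them all 8 that rose, and these 14 could hardly be called lower. Tex19.1 and Tdrd12, both linked to control of transposons in the germline, were at least 40.0-fold and 37.0-fold higher, and the Piwi gene Piwil2 at least 12-fold. Ddx4 and Dazl, RNA-binding genes of later germ cells, read 5.96 ± 0.05 and 5.08 ± 0.12 in iPS cells and were not called. Among 14 trophoblast and Rhox genes 10 were higher (5 uncorrected) and 2 lower. No MEF array detected 9 of the 14, which could hardly be called lower. Rhox5, an X-linked homeobox gene, read 5.12, 5.51, 5.22 and 5.50 in MEF and 12.29, 12.61, 12.49 and 12.52 in iPS cells. It was at least 106-fold higher, and Rhox6 and Rhox9 at least 10.2-fold and 30.1-fold. Tfap2c, shared by trophoblast and germ cells, was at least 49.2-fold higher, and Cdx2, the trophoblast selector, was at least 1.76-fold higher, at a low level of 6.57 ± 0.20 (uncorrected change 0.79, not called). Of the trophoblast markers Eomes, Elf5 and Hand1 were detected on no array of either group. Of 9 genes of the primed epiblast, 6 were higher and none lower, but 5 of the 9 were on no MEF array. Otx2 and Pou3f1 were at least 34.6-fold and 28.0-fold higher, and Fgf5, the usual marker of that state, read 7.27 ± 0.21 in MEF and 7.10 ± 0.11 in iPS cells (adjusted p = 0.173). Primitive endoderm genes split evenly, with 5 of 12 higher and 5 lower, and among the lower were the basement membrane collagens Col4a1 and Col4a2, which fibroblasts also make.

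Promoters of the genes detected in 1 group alone were poorer in CpG dinucleotides than those of the uncalled genes. The promoter of a gene is here 250 bases before to 50 after its first listed start in RefSeq annotation of build GRCm38.p6, and 7641 of the 9455 genes tested had 1. The ratio of observed to expected CpG had a median of 0.781 among 4963 promoters of uncalled genes, 0.713 among genes called higher and 0.674 among genes called lower. It fell to 0.444 for the 524 promoters of genes detected on all 4 iPS arrays and no MEF array, and to 0.466 for the 256 of genes detected on all 4 MEF arrays and no iPS array. Over all 27025 promoters of the table it was 0.389. Promoters with a ratio under 0.4 made up 12% of the uncalled genes, 45.6% of the genes detected in iPS cells alone and 39.5% of those detected in MEF alone. These 2 classes shrink to 612 and 216 genes at the looser detection p-value, for which promoters were not read. The genes found in iPS cells alone and in MEF alone were thus closer to each other in median ratio than either was to the uncalled genes. These are shares of genes, given with no test. The sequences that follow are the promoters of the 3 largest changes in each direction among genes detected in 1 group alone that have a listed promoter, and of 1 highly expressed gene that was not called. They are written 5′ to 3′ on the strand of the gene, with every CG dinucleotide in capitals so that the density of CpG can be seen.
Slc38a5, chrX:8271131-8271430, plus strand: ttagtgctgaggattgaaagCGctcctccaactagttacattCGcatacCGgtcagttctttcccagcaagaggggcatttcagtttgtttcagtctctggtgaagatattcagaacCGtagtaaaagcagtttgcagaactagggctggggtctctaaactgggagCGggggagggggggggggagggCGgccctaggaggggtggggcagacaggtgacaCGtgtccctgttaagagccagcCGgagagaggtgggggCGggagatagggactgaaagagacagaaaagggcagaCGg
Urah, chr7:140834888-140835187, plus strand: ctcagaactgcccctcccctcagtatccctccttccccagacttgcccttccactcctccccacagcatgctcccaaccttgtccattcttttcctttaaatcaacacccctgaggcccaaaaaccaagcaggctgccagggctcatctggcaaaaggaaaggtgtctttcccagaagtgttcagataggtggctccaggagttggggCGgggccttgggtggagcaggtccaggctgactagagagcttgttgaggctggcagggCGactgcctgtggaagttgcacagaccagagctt
Esrrb, chr12:86360867-86361166, plus strand: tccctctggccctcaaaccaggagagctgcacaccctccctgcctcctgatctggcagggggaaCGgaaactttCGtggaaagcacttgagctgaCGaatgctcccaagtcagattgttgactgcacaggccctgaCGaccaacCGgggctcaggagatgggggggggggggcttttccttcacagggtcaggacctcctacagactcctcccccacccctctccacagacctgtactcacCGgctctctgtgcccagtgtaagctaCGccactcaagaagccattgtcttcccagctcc
Ogn, chr13:49607765-49608064, plus strand: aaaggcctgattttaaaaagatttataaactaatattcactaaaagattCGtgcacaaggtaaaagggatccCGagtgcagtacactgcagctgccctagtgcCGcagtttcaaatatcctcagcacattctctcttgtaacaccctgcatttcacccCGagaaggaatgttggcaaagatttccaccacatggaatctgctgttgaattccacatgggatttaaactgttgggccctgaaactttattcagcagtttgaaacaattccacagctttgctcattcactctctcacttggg
Ecrg4, chr1:43730352-43730651, plus strand: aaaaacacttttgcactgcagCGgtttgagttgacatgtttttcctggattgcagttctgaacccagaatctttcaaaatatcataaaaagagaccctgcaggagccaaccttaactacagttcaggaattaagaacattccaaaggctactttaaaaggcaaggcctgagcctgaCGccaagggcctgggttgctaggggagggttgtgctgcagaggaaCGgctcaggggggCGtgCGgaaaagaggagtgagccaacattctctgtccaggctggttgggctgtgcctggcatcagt
C1qb, chr4:136886151-136886450, minus strand: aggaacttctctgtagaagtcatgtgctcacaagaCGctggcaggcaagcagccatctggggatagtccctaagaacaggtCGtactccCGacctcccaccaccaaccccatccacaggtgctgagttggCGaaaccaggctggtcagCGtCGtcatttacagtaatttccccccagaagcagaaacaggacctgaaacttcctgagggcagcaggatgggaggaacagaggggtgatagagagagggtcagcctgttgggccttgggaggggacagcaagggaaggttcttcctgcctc
Tuba1b, chr15:98934341-98934640, minus strand: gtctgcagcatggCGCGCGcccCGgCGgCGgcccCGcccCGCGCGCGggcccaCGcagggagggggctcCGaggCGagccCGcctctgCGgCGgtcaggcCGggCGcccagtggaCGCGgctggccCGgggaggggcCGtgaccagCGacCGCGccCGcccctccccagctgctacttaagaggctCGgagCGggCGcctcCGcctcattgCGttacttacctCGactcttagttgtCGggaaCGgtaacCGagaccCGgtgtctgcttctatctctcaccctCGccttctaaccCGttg

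The promoter of Tuba1b, an alpha-tubulin gene that was not called (0.03, adjusted p = 0.749), held 39 CG dinucleotides in 300 bases (ratio 0.989). The 3 promoters of genes detected in iPS cells alone held 10 (Slc38a5), 2 (Urah) and 7 (Esrrb). The 3 of genes detected in MEF alone held 4 (Ogn), 5 (Ecrg4) and 6 (C1qb). Exact matches to short motifs were also counted on both strands. The octamer ATGCAAAT, the letters that Pou5f1 family proteins bind, was in 4.01% of the promoters of genes detected in iPS cells alone (21 of 524) and in 2.56% of those of genes called higher. It was in 1.5% of the promoters of genes called lower, 1.47% of all genes tested and 1.75% of all promoters of the table. CATTGT, a core that Sox factors bind, was in 7.52% of the promoters of genes called higher, 5.52% of genes called lower, 6.92% of all genes tested and 12.8% of all promoters of the table. The motifs that follow are given in the same order. TGANTCA, the AP-1 site, was in 6.88%, 5.99%, 5.47% and 7.93%, and CATTCCT, a Tead site, in 4.4%, 4.73%, 4.21% and 5.28%. TATAAA was in 9.01%, 9.54%, 7.97% and 14.2%, CCAAT in 38.8%, 36.1%, 38.6% and 37.9%, and TTAAAA in 14%, 11.6%, 12.3% and 19.3%. GGGCGG was in 62.0%, 63.3%, 64.4% and 35.9%, and the E-box CACGTG in 9.79%, 9.54%, 10.1% and 7.24%. Other motifs also departed from their share of all genes tested among the genes detected in iPS cells alone. There CATTGT was in 10.3%, TGANTCA in 8.97%, CATTCCT in 5.53%, TATAAA in 12.2% and TTAAAA in 15.65%, all above it. CCAAT in 31.9%, GGGCGG in 50.4% and CACGTG in 6.49% were below it. Among genes detected in MEF alone, TGANTCA in 6.64%, CATTCCT in 6.64%, TATAAA in 13.7% and TTAAAA in 16.8% were also above it. CCAAT in 34.4%, GGGCGG in 45.3% and CACGTG in 7.03% were also below it. The octamer, in 1.95%, was above it, and CATTGT, in 5.86%, below. Except for CATTGT, these departures thus went the same way in both classes. The remaining motif of 10 searched was in 10.3% of all genes tested, 2.86% of the iPS class and 2.73% of the MEF class. No share was tested. A match describes these letters in this window and is no sign of binding.

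**Figure D3:**
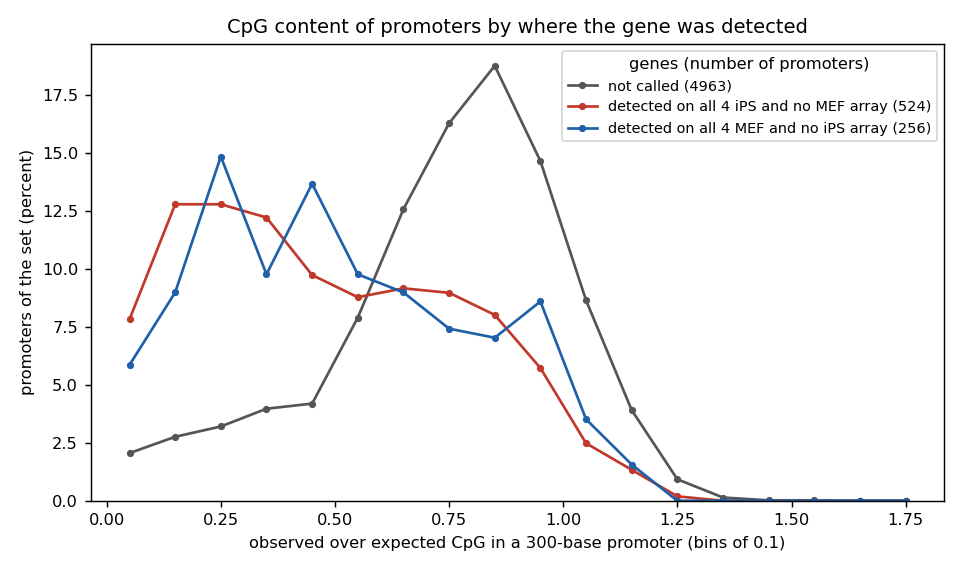
Share of promoters (y axis, percent of the set) by observed over expected CpG ratio in bins of 0.1 (x axis), for 4963 promoters of uncalled genes in grey, 524 of genes detected on all 4 iPS and no MEF array in red and 256 of genes detected on all 4 MEF and no iPS array in blue. Uncalled genes peak between 0.8 and 0.9, and both other sets lie mostly below 0.6.

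The largest falls included secreted and matrix proteins of fibroblasts. Ptn, which encodes the heparin-binding growth factor pleiotrophin, read 15.23, 15.26, 15.21 and 15.35 on the MEF arrays and 6.15, 6.07, 5.85 and 6.08 on the iPS arrays. It was 599-fold lower and still detected on all 4 iPS arrays (-9.23 ± 0.21, adjusted p = 9.24e-17). Ogn, a small leucine-rich proteoglycan of connective tissue, read 13.05, 12.74, 13.01 and 12.75 in MEF and 4.70, 4.59, 4.62 and 4.75 in iPS cells, where it was undetected. That is at least 163-fold lower. Lgr5, the R-spondin receptor that marks several adult stem cells, read 12.16, 12.11, 12.25 and 12.03 in MEF and 4.47, 4.50, 4.58 and 4.53 in iPS cells. It was undetected in iPS, OKM and ES cells alike and at least 97.3-fold lower than in MEF (adjusted p = 1.15e-20). Eln, the elastin gene, fell by 6.91 on the log2 scale and stayed detected on 2 of 4 iPS arrays. Mfap4, a microfibril-associated protein gene, changed by -6.49, and the LIM-binding cofactor gene Ldb2 was at least 58.2-fold lower. Lpl, which encodes lipoprotein lipase, went from 13.80 ± 0.05 to 7.73 ± 0.32 (67.4-fold lower). Igfbp5, a binding protein of insulin-like growth factors, went from 13.50 ± 0.11 to 7.57 ± 0.18 (61.0-fold lower). The endothelin receptor gene Ednrb and the ephrin receptor gene Epha3 were at least 36.6-fold and 30.4-fold lower. Their other probes changed by -2.82 and -1.84 for Ednrb and by -3.94 and -4.54 for Epha3.

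Most matrix genes fell, to very different degrees. Of 28 collagen genes tested, 19 were lower and 1 higher (median -2.46, uncorrected -1.17). Of 34 genes of elastic fibres, proteoglycans and matricellular proteins, 29 were lower and 1 higher (median -2.14). Col1a1, the main chain of type I collagen, read 14.24, 14.23, 14.31 and 14.02 in MEF and 9.37, 8.94, 9.13 and 8.97 in iPS cells. It stayed detected and was 34.2-fold lower (adjusted p = 2.2e-10), with ES cells at 8.71 ± 1.07. Its partner chain Col1a2 read 9.61, 8.65, 9.50 and 8.64 in MEF and was undetected in iPS cells, at least 11.8-fold lower. Col3a1 was at least 33.4-fold lower and Col4a5 at least 19.2-fold. Col9a2, a cartilage collagen, was the single collagen that rose, to 7.74 ± 0.16 from background. Lum and Fmod, proteoglycans that space collagen fibrils, were lower (-5.43 and at least 23.3-fold lower), and the matricellular genes Ccn4 and Thbs1 changed by -4.93 and -4.38. Some abundant fibroblast transcripts changed less. Decorin (Dcn) went from 14.04 ± 0.17 to 12.78 ± 0.25, biglycan (Bgn) from 15.53 ± 0.06 to 13.93 ± 0.09 and vimentin (Vim) from 14.76 ± 0.08 to 12.94 ± 0.25. In ES cells, on the same kind of feeder, these 3 stood at 10.88 ± 0.93, 12.96 ± 0.63 and 11.97 ± 0.56. Ltbp4, a latent TGF-beta binding protein gene, was the only member of the second list that rose, by 1.64.

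Collagen-modifying enzymes followed the collagens. Of 22 tested, 15 were lower and 2 higher (median -1.42). Loxl1, a lysyl oxidase that cross-links elastin, changed by -3.38, the collagen chaperone gene Serpinh1 by -2.55 and the prolyl hydroxylase gene P4ha3 by -3.38. Pcolce2, an enhancer of procollagen cleavage, rose by 2.57, and the lysyl oxidase gene Loxl4 by 1.53. Matrix proteases divided by gene. Of 40 tested, 21 were lower and 5 higher. Adamts1, Adamts5 and Adam12 were among the lower (-5.49, at least 25.2-fold lower and at least 7.12-fold lower), as were Mmp23 (-3.54) and the serine protease gene Htra3 (-3.72). The 5 that rose were Mmp10, Mmp3, Mmp9, Mmp13 and the urokinase receptor gene Plaur, of which Mmp13 lost its call with cyclic loess (0.95) and median scaling (0.92). Mmp3, or stromelysin 1, read 11.11, 11.16, 11.04 and 11.10 in MEF and 13.97, 14.18, 14.27 and 14.01 in iPS cells. The groups did not overlap, the change was 3.01 ± 0.38 (adjusted p = 1.4e-06), and its 3 probes changed by 2.88, 3.27 and 3.01. Mmp10 rose by 5.70 and Mmp9 by 2.15. ES cells stood at 12.02 ± 1.25 for Mmp3 and 9.02 ± 0.75 for Mmp10, below the iPS cells (adjusted p = 0.000144 and 2.75e-07). Of 32 cathepsin and lysosomal genes, 16 were lower and 2 higher, with Ctsk, a collagen-degrading cathepsin, lowest (-3.67).

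The contractile and transcriptional programme of fibroblasts was lower as well. Of 27 contractile genes of the smooth muscle type, 19 were lower and none higher (median -1.77). Mylk, myosin light chain kinase, read 12.17, 12.17, 12.09 and 12.15 in MEF and 7.01, 6.52, 6.79 and 6.69 in iPS cells, and was 42.1-fold lower. Myh11 was undetected in iPS cells (at least 8.74-fold lower) and Tagln changed by -4.11. Acta2, smooth muscle alpha-actin, went from 15.57 ± 0.12 to 13.78 ± 0.04 (-1.79), while its 3 other probes changed by -4.69, -4.36 and -4.32. Desmin (Des) read 8.92 ± 0.09 and 8.03 ± 0.14 and was not called. Of 30 mesenchymal transcription factors, 26 were lower and none higher (median -1.91, uncorrected -1.20). Osr2, a zinc finger gene of limb and palate mesenchyme, changed by -4.82, Mef2c and Meox2 were undetected in iPS cells, and Prrx1 changed by -2.98. Twist1, a driver of the mesenchymal state, read 10.43, 10.51, 10.30 and 10.18 in MEF and 8.42, 8.43, 8.37 and 8.47 in iPS cells. It was 3.82-fold lower and detected on all 4 iPS arrays, with ES cells at 6.98 ± 0.36. Zeb1 and Snai1, which repress E-cadherin, changed by -1.11 and -1.35, and Zeb2 by -2.27. Within the first 8 arrays of the table Zeb1 changed by -0.94. Runx1 and Foxf1 were not called.

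Hox genes, which record the position of a cell along the body, were lower in part. Of 25 tested, 15 were lower (7 uncorrected) and none higher (median -1.15, uncorrected -0.59). Hoxc10, of the hindlimb and lumbar level, read 9.25, 9.42, 9.32 and 9.44 in MEF and 6.99, 6.87, 6.88 and 6.43 in iPS cells. It was 5.92-fold lower, and its second probe changed by -2.13. Hoxc9, Hoxd10 and Hoxd8 changed by -2.01, -1.94 and -1.93, and Hoxa10 was undetected in iPS cells. Hoxa5, Hoxb7 and Hoxc6 remained detected on all 4 iPS arrays at 8.11 ± 0.38, 8.68 ± 0.20 and 10.69 ± 0.22. In ES cells they stood at 5.56 ± 0.54, 6.33 ± 0.58 and 8.44 ± 0.55. Feeder fibroblasts express Hox genes, and their part in these levels was not tested.

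An epithelial programme was on in iPS cells. Of 33 epithelial genes, 26 were higher and 2 lower (median 2.13, uncorrected 1.16). No MEF array detected 22 of the 33. Those passed the detection filter through other groups and could hardly be called lower. Cdh1, which encodes E-cadherin, read 5.16, 5.41, 5.18 and 5.63 in MEF and 9.14, 9.35, 8.99 and 9.03 in iPS cells. Undetected in MEF, it was at least 10.4-fold higher (adjusted p = 1.97e-14), with ES cells at 10.14 ± 0.18. Esrp1, a splicing regulator that epithelia use, was at least 65.7-fold higher. The epithelial transcription factor genes Elf3 and Grhl2 were at least 10.1-fold and 8.44-fold higher, though 2 other Elf3 probes changed by 2.99 and 0.65. Rab25, Ap1m2 and Krt8 rose by at least 8.16-fold, at least 9.37-fold and 4.4. The exceptions were Cdh3, which encodes P-cadherin (-2.72), and the collagen receptor gene Ddr1 (-1.27, uncorrected -0.95). Of 10 claudins, 4 were higher (40%) and 2 lower (20%), the lower share near the 17.5% of all genes tested. The tight junction genes Cldn4 and Cldn6 were at least 68.8-fold and 74.1-fold higher, while Cldn11 rose from 7.56 ± 0.09 to 12.31 ± 0.26 and was undetected in ES cells. Cdh2 and Cdh11, cadherins of mesenchyme, were both lower (at least 2.42-fold lower, uncorrected -0.83, and -2.82), as was the cell surface gene Thy1 (-2.43). Of 12 integrins, 7 were higher (4 uncorrected) and 4 lower. The laminin receptor chains Itgb4 and Itga3 rose by 3.65 and 2.67, and the collagen receptor chains Itga11 and Itga1 changed by -5.60 and -2.52.

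Among the keratins were genes of stratified epithelium that set iPS cells apart from ES cells as well as from MEF. Of 21 keratins and other intermediate filaments, 13 were higher and 1, vimentin, lower (median 1.31, uncorrected 0.58). No MEF array detected 12 of the 21, which could hardly be called lower. Krt14, a basal keratin, read 8.96, 9.18, 9.17 and 9.04 in MEF and 13, 12.89, 13.03 and 12.86 in iPS cells. It was 14.5-fold higher than in MEF (adjusted p = 1.3e-15) and 7.01 above ES cells on the log2 scale (adjusted p = 1.90e-18). Krt16, an injury-linked keratin, read 4.71, 4.46, 4.59 and 4.52 in MEF and 10.76, 10.82, 10.87 and 11.11 in iPS cells. It was at least 35.1-fold higher than in MEF and stood 5.37 above ES cells. Krt13 was at least 13.7-fold higher and undetected in ES cells. Krt17 and Krt42 were at least 16-fold and 34.2-fold higher than in MEF, but stood higher in ES cells than in iPS cells (adjusted p = 2.82e-08 and 5.65e-09). Single values follow for 4 genes known from barrier epithelia or inflammation. S100a8, a subunit of calprotectin, was at least 35.4-fold higher than in MEF and 3.51 above ES cells. Lcn2, a siderophore-binding protein of innate defence, was at least 42.5-fold higher and 2.90 above ES cells. The acute phase gene Saa3 rose from 7.53 ± 0.21 to 12.27 ± 0.23, with ES cells at 9.21 ± 0.37. Il19, a cytokine of the Il10 family, was at least 6.53-fold higher and undetected in ES cells. The ES cells differ in strain, so these differences from ES cells are not of induction alone.

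**Figure D4:**
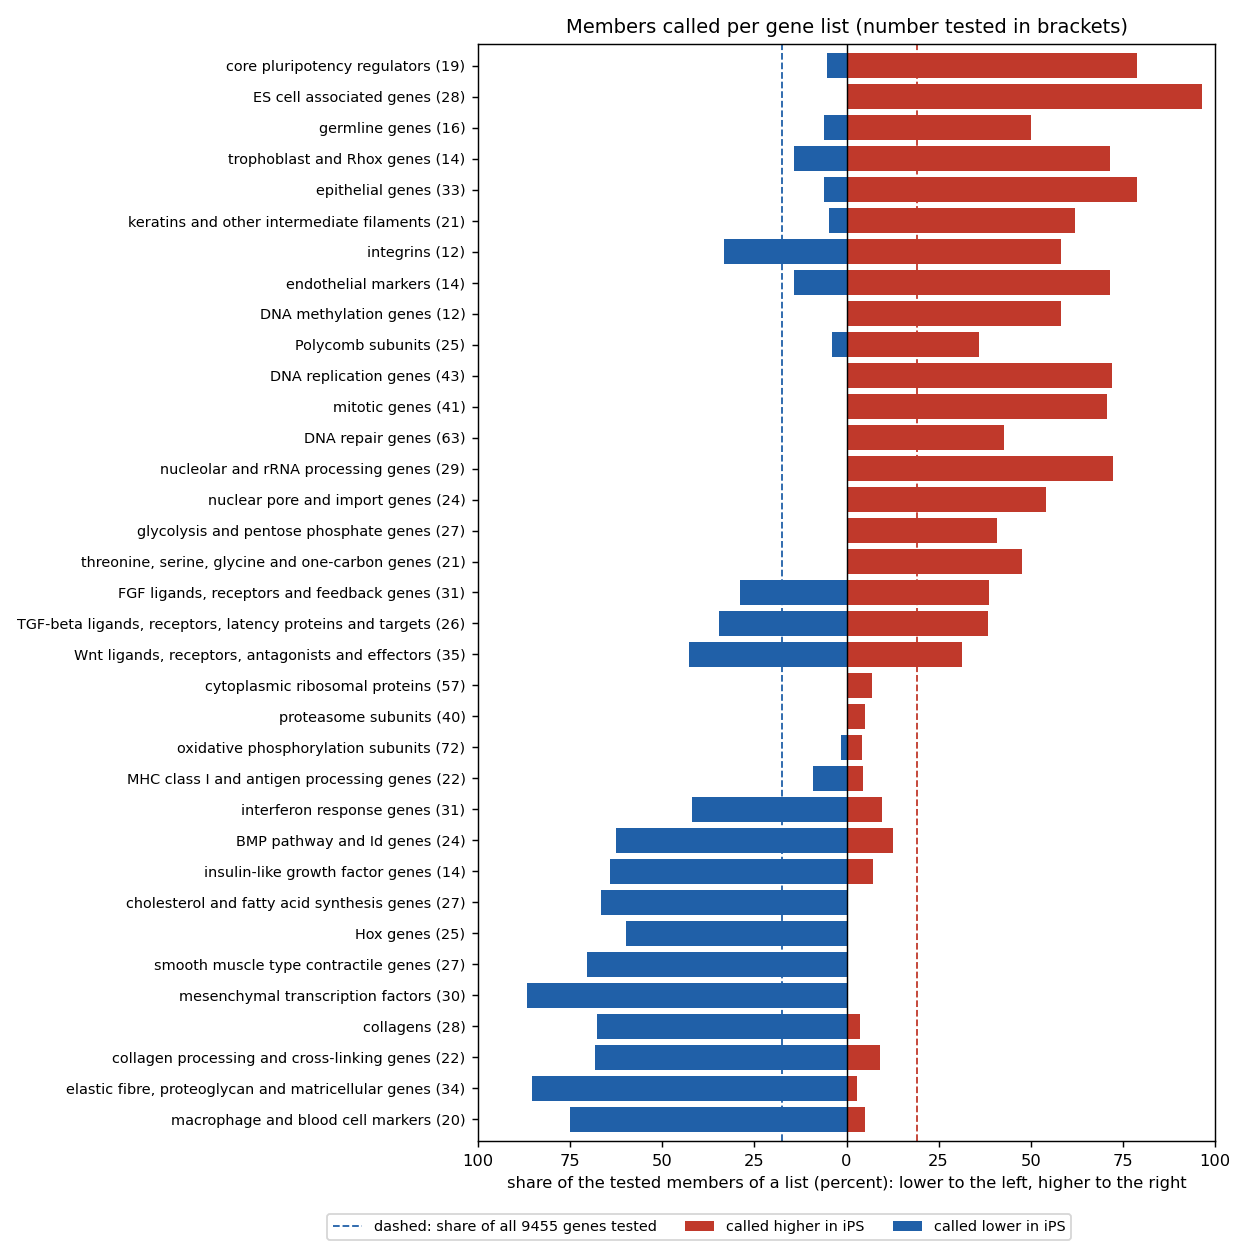
Share of the tested members of 35 gene lists (number tested in brackets) called higher in iPS cells (red, to the right) or lower (blue, to the left), in percent. Dashed lines mark the shares among all 9455 genes tested, 19% higher and 17.5% lower. ES cell associated genes reach the farthest to the right and mesenchymal transcription factors the farthest to the left.

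Chromatin genes were more often higher than lower in iPS cells. Of 12 DNA methylation genes, 7 were higher and none lower (median 1.22). Dnmt3b, a de novo methyltransferase gene, read 7.65, 7.69, 7.61 and 8.06 in MEF and 13.93, 13.66, 13.66 and 13.61 in iPS cells, which is 62.4-fold higher. A second Dnmt3b probe changed by 3.16. Dnmt1, the maintenance enzyme gene, and its partner Uhrf1 rose by 1.37 and 2.30 (second Uhrf1 probe 0.85), and Dppa3, a protector of methylation in the early embryo, was at least 16.7-fold higher. Of 25 Polycomb genes, 9 were higher and 1 lower (median 0.53). Cbx7 was at least 19.9-fold higher, Phc1 and Mtf2 rose by 2.88 and 2.79, and the 3 core genes of complex 2, Ezh2, Suz12 and Eed, by 1.52, 1.54 and 1.51, where a second Ezh2 probe changed by 0.87. Bmi1 alone was lower (-1.22, uncorrected -0.94). Of 67 histone modifiers and remodellers, 21 were higher and 6 lower (median 0.50), a share of higher genes nearer to the 19% of all genes tested. Arid3b and Dpy30 rose by 3.26 and 2.31. The probes of Ash2l disagreed, with changes of 1.90, 0.33 and -0.52.

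Most genes of DNA replication and mitosis were higher. Of 43 replication genes, 31 were higher and none lower (median 1.51). Of 41 mitotic genes, 29 were higher and none lower (median 1.32). Mcm10, a replication initiation gene, read 9.12, 9.19, 9.15 and 9.22 in MEF and 12.48, 12.20, 12.31 and 12.18 in iPS cells, 8.73-fold higher with no overlap. The licensing genes Cdt1 and Mcm2 rose by 2.50 and 2.18 and the separase gene Espl1 by 2.32. Pcna, the sliding clamp, was read by a dim probe, detected on 0 of 4 MEF and 3 of 4 iPS arrays, and was not called (0.55, adjusted p = 0.0914). Mybl2, a cell cycle transcription factor gene abundant in ES cells, rose by 4.26. Of 27 cyclins, kinases and inhibitors, 5 were higher (18.5%) and 4 lower (14.8%), near the 19% and 17.5% of all genes tested. Ccne1, the cyclin that drives entry into S phase, rose by 1.96 and Ccnd2 changed by -2.72, and the inhibitor genes Cdkn2c and Cdkn1c changed by -2.49 and -1.64. Cdkn1a, the p21 gene induced by p53, read 13.18 ± 0.17 and 12.93 ± 0.10 and was not called (-0.26). Of 24 genes of p53 and its targets 3 were higher and 3 lower (12.5% each). Of 63 DNA repair genes, 27 were higher and none lower (median 0.80, uncorrected 0.51), with the uracil glycosylase gene Ung at 2.85 (other probes 2.61, 0.45 and 0.26), the mismatch repair gene Msh6 at 2.51 and Parp1 at 2.34.

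Nucleolar genes rose, while most genes of the ribosome itself were not called. Of 29 nucleolar and rRNA processing genes, 21 were higher and none lower (median 1.25). Nop56 and Fbl, core proteins of the complexes that methylate rRNA, rose by 1.98 and 1.78, and Gar1 and Nhp2, of those that pseudouridylate it, by 1.64 and 1.77 (second Nhp2 probe 0.96). Of 57 cytoplasmic ribosomal protein genes, 4 were higher and none lower (median 0.33). The 4 were Rpl3l, Rpl7l1, Rpl4 and Rps15a, of which Rpl3l is a muscle form and the 2 probes of Rpl7l1 changed by 1.74 and -0.42. Rps15a lost its call uncorrected (0.70). Of 40 proteasome genes 2 were higher (5%), and of 91 genes of the mitochondrial ribosome and import 11 (12.1%, 5 genes with median scaling). Both shares lie below the 19% of all genes tested, with none lower in either list (medians 0.40 and 0.44). Of 24 nuclear pore and import genes 13 were higher and none lower (median 1.13), led by Nup210 (5.60) and the importin gene Kpna7 (at least 5.65-fold).

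Energy metabolism differed between its branches. Of 27 genes of glycolysis and the pentose phosphate path, 11 were higher and none lower (median 0.81). Slc2a3, a glucose transporter of high affinity, read 8.09, 8.21, 8.18 and 8.46 in MEF and 13.35, 13.03, 13.21 and 13.06 in iPS cells. It was 30.4-fold higher (adjusted p = 2.22e-17). Hk2, the hexokinase of growing cells, rose by 2.60, and Pdk1, which restrains pyruvate entry into mitochondria, by 2.38. Gapdh and Ldha read 14.72 ± 0.09 and 13.87 ± 0.09 in MEF against 15.43 ± 0.02 and 14.67 ± 0.12 in iPS cells and did not reach 2-fold. Of 72 subunits of oxidative phosphorylation, 3 were higher and 1 lower (median 0.17, which turned to -0.06 with median scaling and to -0.04 with cyclic loess). The called subunits were forms with a limited tissue range, Cox7a1 (2.54) and Cox6b2 (1.15) higher and Cox6a2 (at least 11.9-fold lower), beside Cyc1 (1.06). A second Cox6b2 probe changed by 0.01 (adjusted p = 0.937), and Cyc1 lost its call with cyclic loess (0.88) and median scaling (0.85).

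Glycine and folate genes rose in part, and sterol genes fell. Of 21 genes of threonine, serine, glycine and folate metabolism, 10 were higher and none lower (median 0.79). Gldc, the glycine decarboxylase gene, read 6.48, 6.42, 6.53 and 6.48 in MEF and 13.41, 13.04, 13.21 and 13.01 in iPS cells. Detected on all 8 arrays, it was 103-fold higher (adjusted p = 5.64e-19). Cth, of cysteine synthesis, rose by 3.60 and the folate receptor gene Folr1 by 3.04. Phgdh, the entry enzyme of serine synthesis, was not called (-0.02, adjusted p = 0.882). Of 27 genes of cholesterol and fatty acid synthesis, 18 were lower and none higher (median -1.31). Cyp51, a sterol demethylase gene, read 11.71, 11.81, 11.90 and 11.81 in MEF and 9.36, 9.18, 9.36 and 9.13 in iPS cells, 5.85-fold lower. Fads2 and Insig1, a desaturase and a regulator that sterol-responsive factors switch on, changed by -2.66 and -2.20. Serum differed between the cultures (15% and 10%), and its part in this was not tested. Of 51 glutathione and antioxidant genes, 11 were higher (21.6%) and 6 lower (11.8%), the higher share near the 19% of all genes tested, with Aldh3a1 (6.20), Gstp2 (6.04) and Gpx2 (at least 7.17-fold) leading. The part of beta-mercaptoethanol, listed for the iPS medium and not for that of MEF, was not tested either.

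**Figure D5:**
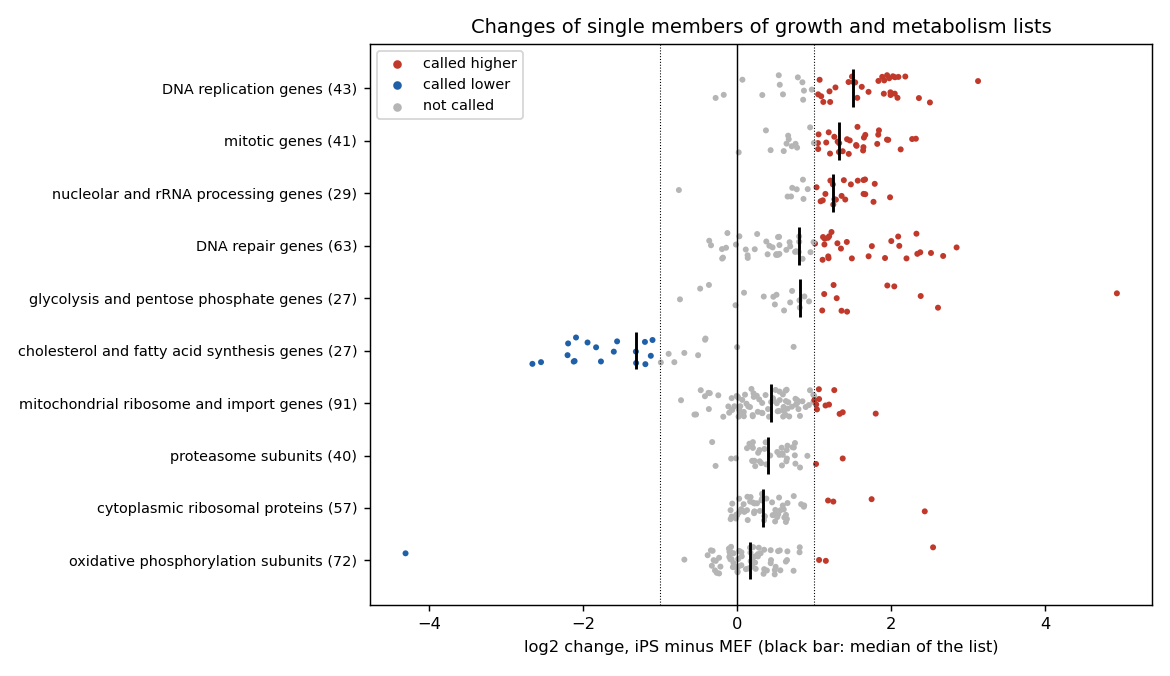
Log2 change, iPS minus MEF (x axis), of each tested member of 10 gene lists, with called genes in red or blue, uncalled ones in grey and the median of each list as a black bar; dotted lines mark 2-fold. Replication, mitotic and nucleolar genes lie to the right, sterol and fatty acid genes to the left, and most ribosomal, proteasome and oxidative phosphorylation genes within 2-fold.

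Within several signalling pathways some members rose and others fell. Among all genes tested 19% were higher and 17.5% lower. In the TGF-beta list 10 of 26 were higher (38.5%) and 9 lower (34.6%). Nodal was at least 10.7-fold higher, Gdf3 at least 27.4-fold and the co-receptor gene Tdgf1 at least 4.01-fold, and the receptor gene Acvr2b rose by 3.87. The ligand genes Tgfb3 and Tgfb2 changed by -4.04 and at least 7.49-fold lower and the receptor gene Tgfbr2 by -1.91. Of 24 BMP and Id genes, 15 were lower (62.5%) and 3 higher (12.5%), with a median of -1.42 (uncorrected -0.86). Id4 was undetected in iPS cells and Id3, a target of BMP in ES cells, went from 9.65 ± 0.17 to 7.86 ± 0.25, while Id1 read 10.51 ± 0.05 and 10.97 ± 0.23 and was not called (0.46, adjusted p = 0.00135). The receptor gene Bmpr1b and the ligand gene Bmp4 were lower (at least 1.99-fold lower, uncorrected -0.78, and -1.49), and the antagonist Grem1 rose by 1.97.

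In the FGF list 12 of 31 were higher (7 uncorrected) and 9 lower (median 0.03, which turned to -0.16 with median scaling). Fgf4, the autocrine ligand of pluripotent cells, was at least 3.44-fold higher and Fgf17 at least 5.12-fold (second Fgf17 probe 0.87). The target genes Etv5, Etv4, Dusp4 and Spry4 rose by 3.19, 2.99, 2.37 and 2.31. The receptor gene Fgfr2 and the ligand gene Fgf2 were lower (-2.10, detected on 2 of 4 iPS arrays, and at least 1.75-fold lower, uncorrected -0.82). Of 35 Wnt genes, 15 were lower (42.9%) and 11 higher (31.4%, 3 genes uncorrected). Beside Lgr5, the secreted antagonists Sfrp1 and Dkk3 changed by -4.08 and -3.92, and the agonist gene Rspo2 and the receptor gene Fzd2 were lower (at least 7.0-fold lower and -3.78). The ligand gene Wnt7b was at least 4.49-fold higher (second probe 0.81), the receptor gene Fzd10 at least 3.59-fold and the Wnt deacylase gene Notum at least 2.45-fold.

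Insulin-like growth factor genes were mostly lower (9 of 14, or 64.3%, against 17.5% of all genes tested, with 1 higher). Igf1 changed by -4.99 and Igfbp3 by -4.55, and Igf2, the fetal growth factor, went from 15.65 ± 0.10 to 13.34 ± 0.15. The RNA-binding protein gene Igf2bp1 was the member that rose (2.88). Receptor tyrosine kinase genes were lower in 19 of 39 (48.7%) and higher in 7 (17.95%, 3 genes uncorrected). The higher share is near the 19% of all genes tested. The receptors of platelet-derived growth factor, Pdgfrb and Pdgfra, changed by -3.79 and -3.08, and Ret was at least 4.79-fold higher. Of 18 LIF, STAT3 and feedback genes, 4 were higher (22.2%) and 3 lower (16.7%), near the 19% and 17.5% of all genes tested. Their median change was -0.05, and 0.04 with cyclic loess. For LIF, which the iPS medium contained, the receptor genes were not higher. Lifr read 6.42 ± 0.23 in MEF and 5.94 ± 0.28 in iPS cells and was not called (-0.48, adjusted p = 0.0203), and the shared chain Il6st was undetected in iPS cells (at least 1.70-fold lower, uncorrected change -0.65, not called). The STAT3 target genes Socs3, Bcl3 and Pim3 rose by 1.37, 2.27 and 3.26, while the 2 probes of Pim1 changed by 1.95 and -0.03. Stat3 read 11.80 ± 0.08 in MEF and 10.98 ± 0.12 in iPS cells, short of 2-fold.

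Most macrophage and blood cell markers of the MEF cultures were lower in iPS cells. Of 20 macrophage and blood cell markers, 15 were lower and 1 higher (median -3.26, uncorrected -1.91). No iPS array detected 12 of the 20, which could hardly be called higher. C1qb, a complement chain made by tissue macrophages, read 10.70, 10.90, 10.55 and 10.69 in MEF and 4.38, 4.44, 4.46 and 4.58 in iPS cells. It was undetected in iPS cells, at least 36.1-fold lower, and C1qc was at least 37.3-fold lower. Lyz2, the myeloid lysozyme gene whose probes may also read Lyz1, went from 13.31 ± 0.05 to 9.04 ± 0.19. The lysosomal membrane gene Laptm5 did not follow, at 12.48 ± 0.11 in MEF and 13.30 ± 0.23 in iPS cells. Of 40 chemokine, cytokine and complement genes, 16 were lower and 11 higher. Cxcl12, the stromal chemokine gene, changed by -5.60, Cxcl15 was at least 35.1-fold lower and Ptx3 changed by -4.87. Of 31 interferon response genes, 13 were lower (6 uncorrected) and 3 higher (median -0.89, uncorrected -0.53), among them Ifit2 (-2.87), Isg15 (-2.04) and Irf7, the regulator of the response (-1.16, detected on 2 of 4 iPS arrays, uncorrected -0.53). MHC class I and antigen processing genes were mostly not called (19 of 22), with B2m at -0.79 (-1.05, past 2-fold, with median scaling) and H2-K1 at 0.01. Of 14 endothelial markers, 10 were higher and 2 lower, but 7 of the 14 were on no MEF array and could hardly be called lower. Pecam1, an adhesion gene that ES cells also express, was at least 15.3-fold higher, with ES cells at 10.01 ± 0.07. Icam2 was at least 30.7-fold higher and undetected in ES cells, while Cdh5 and Kdr, which define endothelium, were detected on no array of either group.

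Imprinted genes, read from 1 parental copy, moved in both directions. Of 22 tested, 10 were lower and 6 higher (median -0.92). Dlk1 and Mest changed by -4.0 and -3.51, Peg3 was undetected in iPS cells, and Cdkn1c changed by -1.64. Phlda2, a growth regulator of the placenta, read 4.99, 5.59, 5.06 and 4.78 in MEF and 12.39, 12.52, 12.57 and 12.69 in iPS cells, and was at least 110-fold higher, with ES cells at 12.86 ± 0.10. Snrpn rose by 2.42. Xist, the RNA that silences an X chromosome in female cells, read 6.01, 5.81, 6.05 and 6.17 in MEF and 4.85, 4.87, 4.76 and 4.88 in iPS cells, where it was undetected (at least 1.39-fold lower, uncorrected change -0.45, not called). The Y-linked genes Eif2s3y, Kdm5d and Uty were not called, with changes of -0.02, -0.15 and -0.33, and Kdm5d and Uty stood at 5.36 ± 0.21 and 5.56 ± 0.18 in iPS cells. Of 22 genes of the unfolded protein and integrated stress responses, 8 were lower and none higher, led by Ddit3 (-2.64). Of 15 Bcl2 family genes 4 were higher and 3 lower (26.7% and 20%, against 19% and 17.5% of all genes tested), with the pro-apoptotic genes Bik and Bid higher (at least 1.82-fold, uncorrected 0.87, and 1.33).

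Genes in common use as references were not all level. Of 11 tested, 3 were higher and none lower: the transferrin receptor gene Tfrc (2.71), Hprt (1.19) and Pgk1 (1.10). Hprt changed by 0.94 with median scaling and Pgk1 by 0.53 uncorrected, so that both fell short of 2-fold there. The other Hprt probes changed by 0.72 and 1.09, and its call was also lost with the mean of its probes. Pgk1 was read at a low level, 6.46 on its lowest iPS array. Actb read 15.71 ± 0.07 in MEF and 15.23 ± 0.06 in iPS cells, Gapdh changed by 0.71 and Tbp by 0.62. Calls near the threshold rest on small differences. Gfi1b (1.001) and Slc13a4 (1.001) were called higher just past 2-fold, and Cul4b (0.999) and Mrpl38 (0.998) fell just short of it. Hebp1 (-1.003) and Sirt2 (-1.001) were called lower just past it, and Slc40a1 (-0.996) and Cnot6l (-0.999) were not called. Of 888 called genes with more than 1 kept probe, 867 changed in the same direction by every probe and 21 did not. Probes that changed in the same direction could still differ in size, as those of Adamts1 did (-5.49 and -3.15).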

How the data were processed

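RNA of 16 dishes in 4 groups was hybridised to Illumina mouse bead arrays, per the labels. The deposited non-normalized table holds a mean bead intensity and a detection p-value per probe and array, made with GenomeStudio per the submitters' processing notes (version and annotation not given in the sources used here). A second deposited table, an intensity table the authors normalized by a method not given, served as an alternative. Of 25697 probes, 23978 had 1 gene symbol and 1719 had none. Background was corrected from the detection p-values (neqc of limma 3.58.1 in R 4.3.3, offset 16), followed by quantile normalization and log2. A probe was kept if detected on at least 4 of 16 arrays (13782 probes), and a gene was read by its kept probe of highest mean level (9455 genes). A mean per group was fitted over all 16 arrays (12 residual degrees of freedom), and p-values of iPS minus MEF were moderated (eBayes), two-sided and adjusted by Benjamini-Hochberg over all genes tested. The fit was tested on simulated data. Promoters came from RefSeq.

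Gene lists and members were chosen with earlier results of these data known. The genes named are the 5 factors, the 20 largest changes without overlap and the 15 largest among genes detected on all 8 arrays in each direction, up to 5 called members per direction and 3 uncalled members of each list, genes of highest level, and genes nearest to 2-fold. Bmp4, Bmpr1b, Ccn4, Cdh1, Cdh2, Dazl, Dcn, Dnmt1, Dusp4, Eed, Ezh2, Foxf1, Gar1, H2-K1, Hoxa5, Hoxb7, Hoxc6, Id3, Irf7, Krt14, Lifr, Lin28a, Lyz1, Mybl2, Pcna, Prrx1, Rab25, Snai1, Spry4, Suz12, Tbp, Tdgf1, Tgfbr2, Thbs1, Twist1, Tyrobp, Zeb1 and Zeb2 fall outside that rule and were chosen after their values were seen. Several uncalled genes and genes not tested are named from the marker lists. Precision is limited by having 4 arrays per group: the median SE of a change was 0.128 on the log2 scale.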

Additional observations from a re-analysis of the deposited data

Results flagged for a closer look

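For 24 of 423 pairs of a printed gene and a group in which all 4 arrays detected it, 1 array lay farther from the other 3 than Dixon's 95% limit allows. Chance gives about 1 in 20. Values are log2 normalized intensities. The highest MEF array stood apart from the other 3 for Hebp1 (11.79, replicate 2), Plaur (7.85, replicate 2), Snai1 (8.85, replicate 2), Tagln (11.79, replicate 2) and Zeb1 (11.07, replicate 1). The lowest MEF array stood apart from the other 3 for Cth (5.77, replicate 2) and Tyrobp (7.97, replicate 4). The highest iPS array stood apart from the other 3 for Aldh3a1 (12.18, replicate 3), Dnmt3b (13.93, replicate 1), Etv5 (10.86, replicate 1), Fbl (14.35, replicate 4), Hprt (13.91, replicate 1), Klf2 (11.12, replicate 4), Klf5 (13.16, replicate 3), Mmp10 (11.62, replicate 2), Nop56 (12.86, replicate 4), Rhox6 (9.50, replicate 3), Tdrd12 (11.12, replicate 4), Wnt7b (8.18, replicate 3) and Zeb1 (10.27, replicate 1). The lowest iPS array stood apart from the other 3 for Isg15 (8.83, replicate 1), Laptm5 (12.96, replicate 4), Mmp23 (7.69, replicate 1) and Pgk1 (6.46, replicate 4). Of the 24, 6 were iPS replicate 4, 6 iPS replicate 1 and 5 MEF replicate 2. What sets these arrays apart in these genes was not tested.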

How the results depend on the processing

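The counts of 1798 genes called higher and 1654 lower stayed within 1.5 times under most of the alternatives. Without background correction they were 1176 and 1097, and by adjusted p alone 3706 and 3504. Restricted to genes detected on all 8 arrays, which tests fewer genes, the count of higher genes was 1008. Leaving out each array in turn gave 1774 to 1812 higher and 1620 to 1684 lower. At a detection p-value under 0.05, 216 genes in place of 363 were detected on all 4 MEF arrays and no iPS array, and 612 in place of 715 the other way. No gene called in both the reported fit and an alternative had opposite signs. Median scaling moved the median of all genes from 0.03 to -0.09, and gave 1576 higher and 1904 lower, against 1710 and 1768 with cyclic loess. Without background correction 107 of 136 counts of list members called in a direction stayed within 1.5 times, and 124 of 136 with an offset of 50. List medians shrank without it, from -2.46 to -1.17 for collagens, from 1.02 to 0.47 for germline genes, from 1.56 to 0.65 for trophoblast and Rhox genes and from 1.31 to 0.58 for keratins and other intermediate filaments. Of 277 genes named, 21 lost their call without background correction, 10 with an offset of 50, 6 with median scaling and 4 with cyclic loess. Without background correction those that lost it included Klf4, Bmi1, Cdh2, Cdx2, Hoxa5, Hoxa10, Il6st, Irf7, Pgk1 and Xist. Klf2, Hprt, Mmp13 and Cyc1 lost it with cyclic loess and median scaling. Without Laptm5, left out after its values were seen, the macrophage marker sum in iPS cells was 504 to 624 in place of 8462 to 11571. With the replicate number as a block the counts were 1798 and 1654. Both groups carry the same replicate numbers, so that block leaves every log2 change as it is and could hardly alter a call. The numbers share only a name: deviations of same-numbered iPS and MEF arrays correlated at 0.054, -0.384, -0.119 and -0.294, and 0 of 4 iPS arrays followed their own number best. Dim probes near background limit the size of a fold more than its direction.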
